A study of Rattus norvegicus with 12 samples.

Results

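Corticotropes are the pituitary cells that make adrenocorticotropic hormone from the precursor proopiomelanocortin. The genes described here are Pomc, which encodes that precursor, and 5 genes that act with it in corticotropes or in the melanotropes of the intermediate lobe: Tbx19, Neurod1, Pax7, Crhr1 and Avpr1b. They were chosen by symbol, and a probe set counted when the platform annotation gave it that symbol and no other. Of the 6 genes, 4 had such a probe set, with 1 each, among 31042 probe sets other than controls that covered 14217 genes of 1 symbol. The probe sets were 1384612_at for Pomc, 1377038_at for Tbx19, 1387288_at for Neurod1 and 1369241_at for Avpr1b. Crhr1 and Pax7 were not analysed here, and neither was a further probe set that carried the Avpr1b symbol under 2 gene identifiers. All 4 probe sets passed the filter on dim probe sets, which kept 18625 by their mean over all arrays. Pomc and Avpr1b passed it only through the groups where they were high, as given with the processing below.

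Corticotropin-releasing hormone and vasopressin, secreted by the hypothalamus, act on corticotropes through the receptors encoded by Crhr1 and Avpr1b, and Pomc transcription follows. TBX19, also called TPIT, and NEUROD1 are transcription factors that bind the Pomc promoter, and PAX7 acts beside TBX19 in melanotropes. Glucocorticoids from the adrenal repress Pomc through their nuclear receptor, and prohormone convertases cleave the precursor into adrenocorticotropic hormone or, in melanotropes, into melanocyte-stimulating hormone.

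The samples were cultures of pituitary cells that had been enriched for gonadotropes, which secrete the gonadotropins luteinizing hormone (LH) and follicle-stimulating hormone. Every sample came from adult female Sprague-Dawley rats, and all donors had been ovariectomized 2 weeks earlier. In each experiment 13 to 15 anterior pituitaries were pooled, dispersed with trypsin and separated by sedimentation. The large cells that were kept made up about 6% of those recovered, and 40 to 60% of them stained for LH against under 7% before separation. The other cells of the pool were of types the labels do not name, and how many of them were corticotropes was not measured here. All cultures were held in medium with 0.2 nM estradiol and serum that had been treated with charcoal to take out steroids. On culture day 3 they received 10 nM gonadotropin-releasing hormone (GnRH, the hypothalamic peptide that acts on gonadotropes) or vehicle medium for 40 min. RNA was amplified in successive T7 rounds and hybridised to Affymetrix Rat Expression 230 arrays, 1 for each of 6 vehicle and 6 GnRH samples. The samples came from 3 preparations, called enrichment sets I, II and III, each with 2 vehicle and 2 GnRH samples. Replicates 1 and 2 belong to set I, 3 and 4 to set II, and 5 and 6 to set III. The titles call them biological replicates, but nothing says that wells of 1 preparation were separate cultures, so p-values measure the spread between these samples, which may be technical.

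Arrays fell into 2 classes by the signal of 18 probe sets for bacterial transcripts added at hybridisation. The geometric mean of these was 2264 to 11705 on 5 arrays, all 4 of set I and vehicle 5, and 53482 to 320024 on the other 7. The 2 classes are called low and high spike-in arrays below. Background was read from 27 probe sets for other bacterial genes, and the sources used here do not say whether matching RNA had been added. The median of these 27 was 10.3 to 26.2 on low spike-in arrays and 38.0 to 250 on high spike-in arrays. Arrays of the low class had Spearman correlations of 0.910 to 0.935 with each other, and those of the high class 0.364 to 0.688. Vehicle 3 stood apart, with a median correlation of 0.376 to the rest, while the medians of the remaining arrays ran from 0.623 to 0.715. Lhb, which encodes the LH beta subunit, was brighter than all 27 background controls on each of the 12 arrays. The same held for Cga, the common glycoprotein hormone subunit, for Gh1 (growth hormone), Prl (prolactin) and Tshb (the thyrotropin beta subunit), so RNA of growth hormone, prolactin and thyrotropin cells was measured in every sample.

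Pomc lies at chr6:32659137-32665175 of the rat assembly GRCr8. A promoter window of 250 bases before to 50 after a transcript start is given here from RefSeq because Tbx19, Neurod1 and the Nr4a factors of the results below belong to families that bind Pomc. The window is chr6:32659103-32659402 on the plus strand. Its transcript start, base 32659353, lies 216 bases inside the outermost start of the gene, and capitals mark the motif matches.
Pomc promoter: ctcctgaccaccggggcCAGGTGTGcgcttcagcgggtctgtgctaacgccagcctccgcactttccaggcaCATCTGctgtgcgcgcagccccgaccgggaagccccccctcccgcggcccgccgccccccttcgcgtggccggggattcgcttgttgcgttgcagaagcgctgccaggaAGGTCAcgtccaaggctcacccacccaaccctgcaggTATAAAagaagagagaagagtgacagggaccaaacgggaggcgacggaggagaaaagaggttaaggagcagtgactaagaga
Motifs were searched on both strands. The E-box CANNTG, the class of site that NEUROD1 dimers bind, matched at window positions 18 and 73, and 72.1% of 33469 rat promoter windows of the same length held at least 1 match. The T-box letters AGGTGTG matched once, at position 19, overlapping the first E-box, against 5.61% of all windows. The nuclear receptor hexamer AGGTCA matched at position 182 and TATAAA at position 219, and 16.2% and 14.2% of all windows held these. The RefSeq windows of the other 5 genes held no T-box and no AGGTCA match. Letters more than 250 bases before that transcript start were not searched, so sites of these factors farther away would not appear here. A match is a description of letters and not a site shown to be used in these cells.

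The first question was how strongly each gene was measured and how its level differed between preparations. Pomc was bright in set I and dim in most of sets II and III. In set I the vehicle arrays had scaled signals of 1139 and 1516, and GnRH 1 and 2 had 1175 and 674. In set II vehicle 3 and 4 had 143 and 714, and GnRH 3 and 4 had 52.6 and 49.0. In set III vehicle 5 and 6 had 423 and 293, and GnRH 5 and 6 had 81.4 and 34.1. Of the 4 arrays of set I, 3 were above every other array, and GnRH 2 lay below vehicle 4 alone among the arrays of the other sets. The moderated F test over the 3 sets gave F = 14.0 for Pomc (limma adjusted p = 0.0189), and 6.02% of all tested probe sets were called by that test. Pomc was 7.28-fold lower in set II than in set I (95% confidence interval 2.95 to 17.95; log2 difference -2.86 ± 0.62 SE, n = 4 arrays per set; limma adjusted p = 0.0120), a direction and call shared by 7.57% of tested probe sets. It was 6.84-fold lower in set III than in set I (interval 2.77 to 16.9; limma adjusted p = 0.0319), against 1.34% called lower. Sets II and III did not differ detectably (log2 difference 0.09 ± 0.62 SE; limma adjusted p = 0.963; 95% interval -1.21 to 1.39). In cultured tissue measured in bulk, fewer cells of a type and less RNA per cell cannot be told apart.

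The call for Pomc between sets rested on set I. It was lost when vehicle 1 (limma adjusted p = 0.0627), vehicle 2 (0.0559), GnRH 1 (0.114) or GnRH 2 (0.0957) was left out, and the 8 other omissions gave 0.0112 to 0.0340. In that order the omissions of set I arrays left 127, 375, 137 and 175 probe sets called, against 1122 with all arrays. In those fits Pomc had an unadjusted p of 0.00060 to 0.0043 by the F test, against 0.00028 with all arrays. Its own result weakened, and fewer probe sets were called as well. Set I held only low spike-in arrays and set II only high ones, so these sets and the spike-in class cannot be told apart. With the spike-in signal as a covariate, F for Pomc was 5.49 (limma adjusted p = 0.322). In set III, which held both classes, the low spike-in array vehicle 5 had the highest Pomc signal. Between sets III and II, high spike-in arrays alone gave a log2 difference of -0.02 ± 0.98 SE (limma adjusted p = 0.999, 7 arrays). On the same split, Lhb, Cga, Gh1 and Prl had mean log2 values 2.31, 2.76, 3.57 and 1.52 above those of the low arrays. Pomc was 2.77 below (log2 difference -2.77), Gnrhr, the GnRH receptor gene, 1.73 below (-1.73) and Tshb 0.24 below (-0.24). Among the corticotrope genes, Avpr1b (1.84), Tbx19 (0.81) and Neurod1 (0.17) were higher on the high arrays. Gnrhr and Avpr1b exceeded all background controls on 0 of the 7 high arrays and Pomc on 1, so these differences rest partly on background values. The summed signal of the 9 tested gonadotrope genes was 42152 to 126711 on low and 259468 to 512414 on high spike-in arrays. For the 6 somatotrope and lactotrope genes it was 37368 to 119399 and 381934 to 1171580. These sums are mostly the signal of Lhb and Cga, and of Gh1 and Prl, and do not stand for each gene. Fshb was 0.42 higher on high arrays, and Gnrhr was lower. The median log2 difference between sets II and I was 0.09 over the gonadotrope list and 0.12 over the other list. The part of these genes and cells in the Pomc difference was not tested.

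In vehicle samples alone, the geometric mean of the Pomc signal was 1314, 325 and 353 in sets I, II and III, with 2 arrays in each. The mean log2 values were 10.38 ± 0.29, 8.41 ± 1.55 and 8.53 ± 0.36 (SD, n = 2 each). Set I was highest and sets II and III lay close together, as over all arrays, but the difference did not pass the test with 6 arrays (limma adjusted p = 0.402; unadjusted p = 0.0628 by the same moderated F test). No probe set passed that test by limma, and 12.8% of those tested had an unadjusted p under 0.05.

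Pomc exceeded all 27 background controls on each of the 5 low spike-in arrays. On the high spike-in arrays it did so only on vehicle 4. Of the background controls, 15 were brighter than Pomc on vehicle 3, 4 on vehicle 6, and 20, 15, 15 and 14 on GnRH 3, 4, 5 and 6. Pomc was thus within the range of the background controls in each GnRH sample of sets II and III, and the folds between sets and between agents rest partly on values within the background range. Pomc was above all background controls on 4 of 6 vehicle and 2 of 6 GnRH arrays, and on 4, 1 and 1 of the 4 arrays in sets I, II and III.

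**Figure D1:**
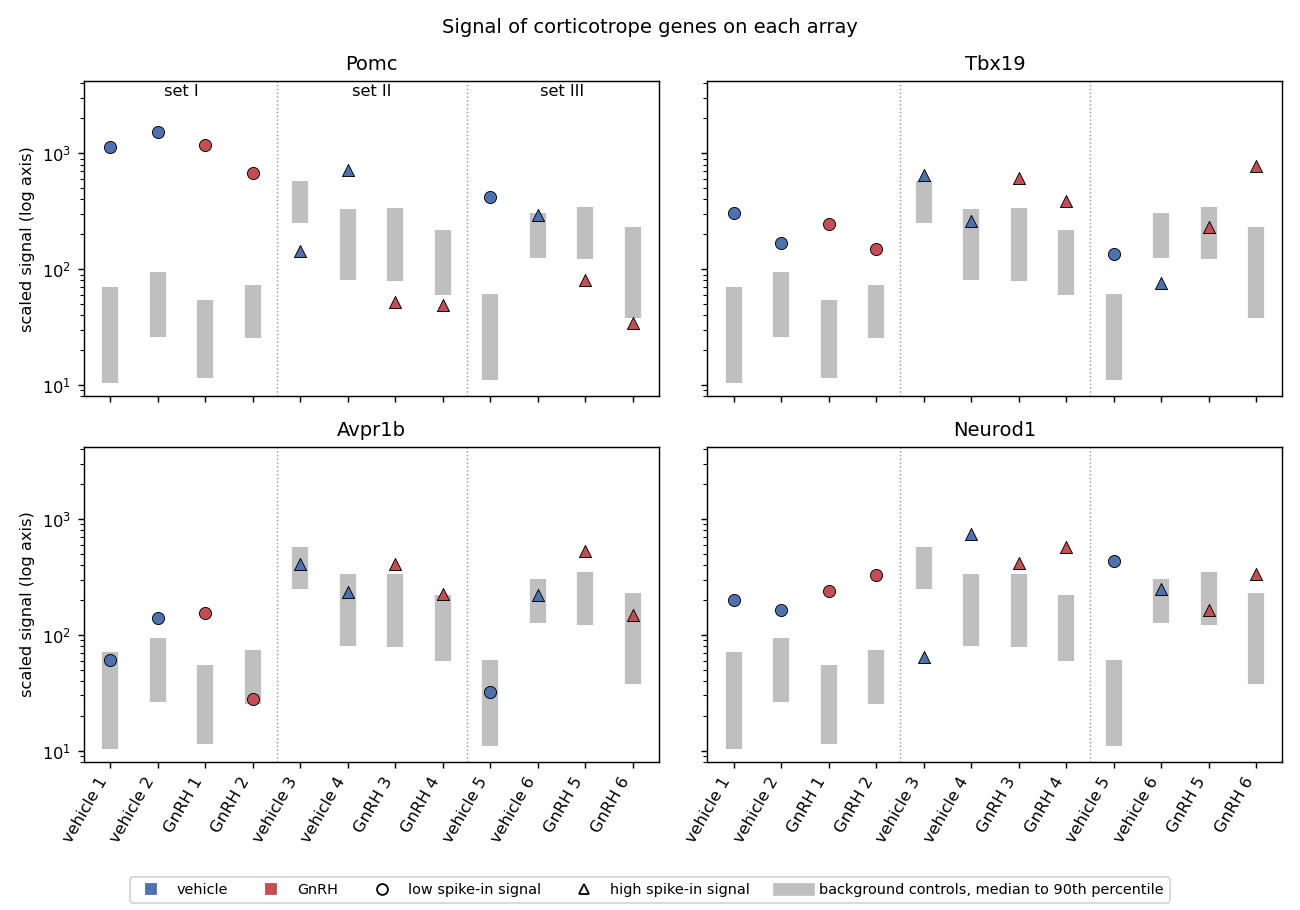
Scaled signal (log axis) of Pomc, Tbx19, Avpr1b and Neurod1 on each of the 12 arrays, ordered by enrichment set; circles are low and triangles high spike-in arrays, and grey bars run from the median to the 90th percentile of 27 background controls. Pomc lies far above the bars in set I and vehicle 5, and at or below their lower ends in GnRH 3, 4, 5 and 6, while Avpr1b lies within or near the bars on most arrays.

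Among the factors that act on Pomc, Tbx19 (chr13:79983935-80016219), the T-box factor that marks the corticotrope and melanotrope lineage, showed no set order like that of Pomc. The vehicle arrays 1 to 6 read 304, 169, 654, 262, 135 and 75.8. The GnRH arrays 1 to 6 read 248, 148, 609.6, 387, 229.6 and 783. Set II was highest among the vehicle pairs (geometric means 227, 416 and 102 in sets I, II and III), but the sets overlapped and the F test did not pass (limma adjusted p = 0.373 over 12 arrays and 0.493 over the vehicle arrays). Tbx19 exceeded all background controls on the 5 low spike-in arrays and on 2 of the 7 high ones.

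Neurod1 (chr3:84766483-84770454), a basic helix-loop-helix factor that drives Pomc in corticotropes, read 199, 163, 64.5, 734, 432 and 250.1 on vehicle arrays 1 to 6. On GnRH arrays 1 to 6 it read 238, 330.0, 417, 572, 164 and 337. The lowest and the highest of the 12 values were the vehicle arrays of set II, and all other values lay between them. The F test over sets gave a limma adjusted p of 0.814, and 0.894 among vehicle arrays. Neurod1 exceeded all background controls on 5 of 5 low and 3 of 7 high spike-in arrays, and on vehicle 3 it lay below 21 of the 27.

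Avpr1b (chr13:45598116-45611680), the vasopressin receptor through which corticotropes sense vasopressin, overlapped the background controls on most arrays. It was 1.09 to 13.4 times their median on low spike-in arrays and 1.63 to 5.22 times on high ones. Its signals on vehicle arrays 1 to 6 were 60.5, 139.9, 409, 236, 31.9 and 222. On GnRH arrays 1 to 6 they were 155, 27.8, 409, 227, 525 and 149. It exceeded all background controls on 1 array, vehicle 2, and between 1 and 13 of the 27 were brighter on each of the others. The II minus I log2 difference of 1.74 ± 0.74 SE, opposite in sign to that of Pomc, did not pass (limma adjusted p = 0.122), and neither did the F test over sets (limma adjusted p = 0.252). On 11 of 12 arrays Avpr1b thus lay within the background range, which was itself higher in set II than in set I. Over the 4 genes, 1 was called by the F test over sets, Pomc.

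The second question was what 40 min of GnRH did to these genes. None of the 4 was called by limma after adjustment over the 18625 tested probe sets, of which 0.00537% were called higher and 0% lower. Pomc had the 1 negative difference between GnRH and vehicle samples among the 4. Its mean log2 value was 9.11 ± 1.22 in vehicle and 7.34 ± 1.97 in GnRH samples (SD, n = 6 each), a difference of -1.77 ± 0.50 SE, or 3.40-fold lower on the scale of signal plus 16 (95% confidence interval 1.63 to 7.11; limma adjusted p = 0.981, unadjusted p = 0.0028). The groups overlapped, with medians of 569 in vehicle and 67.0 in GnRH samples. GnRH samples were lower in 28 of the 36 GnRH and vehicle pairs. Pomc ranked 13th from the most lowered and 7th by p among the 18625 probe sets, and 1.58% of these were lower at an unadjusted p under 0.05.

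Taken set by set, with 2 arrays against 2, the Pomc difference was -0.55 in I, -2.35 in II and -2.40 in III on the log2 scale. In set III vehicle 5 was a low spike-in array, while vehicle 6, GnRH 5 and GnRH 6 were high ones. Agent and spike-in class therefore cannot be fully told apart there, for Pomc or for the other genes and ratios below. Without vehicle 5 the pooled Pomc difference was -1.63. A lower mean in each of the 3 sets was shared by 11.4% of tested probe sets. The difference between sets was not established (interaction F test, limma adjusted p = 0.950, unadjusted p = 0.233, and 0% of probe sets called against 5.36% at an unadjusted p under 0.05). The set with the smallest difference, set I, was the one in which Pomc stood above background on every array. In sets II and III all 4 GnRH values lay within background, and there the high spike-in arrays alone gave -2.27. With arrays weighted by their quality, which gave set I the most weight, the difference was -1.11. Over 26 alternative settings the limma adjusted p ran from 0.648 to 1.0. Leaving out 1 array at a time gave -2.02 to -1.42, with an unadjusted p of 0.00106 to 0.00883 in the 12 fits.

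The other 3 genes were higher on average in GnRH samples, with intervals that include no difference. Tbx19 had mean log2 values of 7.85 ± 0.99 in vehicle and 8.49 ± 0.87 in GnRH samples (SD, n = 6 each) and a difference of 0.64 ± 0.51 SE (95% interval -0.44 to 1.71; limma adjusted p = 0.981). It was higher in 24 of 36 pairs, and set by set the difference was -0.22, 0.22 and 1.91 in I, II and III. The pooled value thus came mainly from set III, where GnRH 6 read 783 and vehicle 6 read 75.8, and without GnRH 6 it was 0.26. On vehicle 6, 16 of the 27 background controls were brighter than Tbx19, so the size of the set III difference rests on a value within background.

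Neurod1 went from 7.997 ± 1.11 to 8.39 ± 0.59 in mean log2 value (SD, n = 6 each), a difference of 0.39 ± 0.54 SE (95% interval -0.75 to 1.53; limma adjusted p = 0.981). The differences within sets were 0.59, 1.04 and -0.46, and without vehicle 3 the pooled value was -0.09, so its sign depended on that array. Avpr1b had mean log2 values of 7.29 ± 1.17 and 7.66 ± 1.28 (SD, n = 6 each) and a difference of 0.37 ± 0.61 SE (interval -0.91 to 1.65; limma adjusted p = 0.985). Within sets it was -0.34, -0.03 and 1.49, and without vehicle 5 the pooled value was -0.05. For all 3 genes the vehicle and GnRH groups overlapped.

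**Figure D2:**
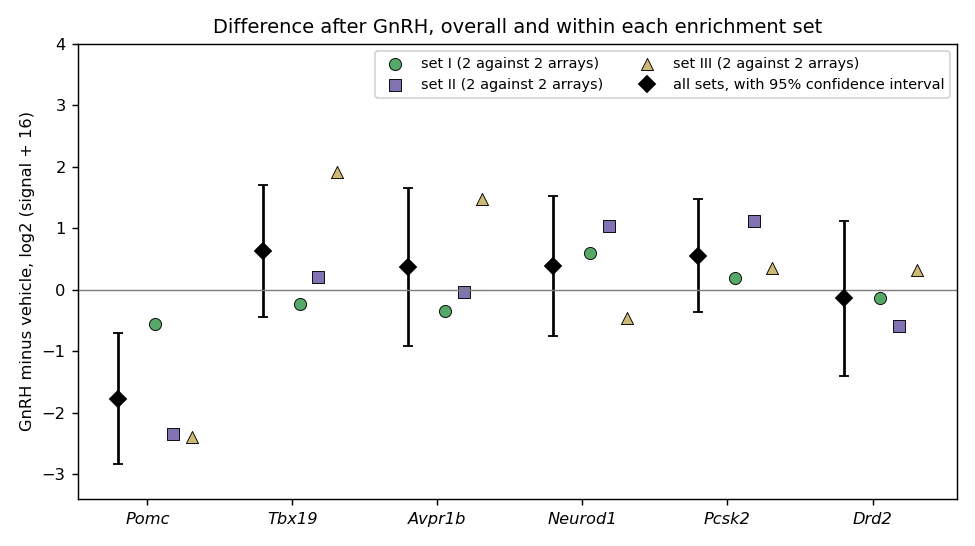
GnRH minus vehicle difference in log2(signal + 16) for the 4 corticotrope genes and for Pcsk2 and Drd2; diamonds show the fit over 12 arrays with its 95% confidence interval, and coloured marks show each set on its own. The Pomc interval, from -2.83 to -0.70, is the 1 that lies wholly below 0, and its set I value of -0.55 is nearer to 0 than its values in the other sets.

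The study called a gene regulated when its fold reached 1.50 and at least 50% of the pairwise comparisons were concordant. Applied to signal plus 16, this criterion called Pomc down, with a ratio of geometric means 3.40-fold lower and 26 of 36 pairs (72.2%) at 1.50-fold or more. It called Tbx19 up, at 1.55-fold with exactly 50% of pairs. Neurod1 (1.31-fold, 44.4% of pairs) and Avpr1b (1.30-fold, 47.2%) did not meet it. The same criterion called 7.62% of all tested probe sets up and 7.60% down and carries no error estimate.

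The third question was whether Pomc moved with the other corticotrope and melanotrope genes. The log2 ratio of Pomc to each gene was compared on the same arrays by exact two-sided permutation within sets, with 216 arrangements and a smallest possible p of 0.00926. Pcsk2, which encodes a convertase that makes melanocyte-stimulating hormone in melanotropes, and Drd2, the dopamine D2 receptor gene of melanotropes and lactotropes, were added to Tbx19, Neurod1 and Avpr1b, which made 5 ratios. Pcsk2 itself differed by 0.56 ± 0.44 SE and Drd2 by -0.13 ± 0.60 SE between GnRH and vehicle samples. The Pomc difference known from the comparison above enters every ratio, so these tests ask only whether the second gene differed in the same way. A gene that did not change with GnRH can therefore pass. How many of all tested genes would pass was not computed, so a ratio that passes is not shown to be particular to these genes.

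Pomc was lower in GnRH samples relative to Neurod1 by a log2 ratio difference of -2.16 (ratio 1.11 ± 1.35 in vehicle and -1.05 ± 2.24 in GnRH samples, SD, n = 6 each; exact permutation p = 0.00926, adjusted over 5 ratios 0.0231). The direction was the same in the 3 sets (-1.15, -3.39 and -1.94) and in 28 of 36 pairs. Relative to Pcsk2 the difference was -2.32 (exact permutation p = 0.00926, adjusted 0.0231), in 30 of 36 pairs, with set values of -0.74, -3.48 and -2.76. Relative to Tbx19 it was -2.40 (exact permutation p = 0.0278, adjusted 0.0463), in 25 of 36 pairs, with set values of -0.33, -2.57 and -4.31. Relative to Avpr1b it was -2.14 (exact permutation p = 0.0370, adjusted 0.0463), in 27 of 36 pairs. The ratio to Drd2 did not pass (-1.63; exact permutation p = 0.0926, adjusted 0.0926). Drd2 exceeded all background controls on 0 of the 7 high spike-in arrays, so its ratio there also holds values within the background range. In set I, where Pomc stood above background on every array, the ratio differences were the smallest of the 3 sets for Tbx19 (-0.33), Avpr1b (-0.22), Neurod1 (-1.15), Pcsk2 (-0.74) and Drd2 (-0.42). In sets II and III all 4 GnRH values of Pomc lay within the background range, so the sizes of these ratio differences are not measured there. Avpr1b lay below at least 1 background control on 11 of the 12 arrays, so its ratio there sets values within the range of the controls against each other.

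The ratios differed in how far they rested on single arrays. The call against Pcsk2 stood in 12 of 12 omissions of 1 array (exact permutation, adjusted p from 0.0231 to 0.0463). The call against Neurod1 stood in 10 of 12 and was lost without vehicle 5 or vehicle 6 (adjusted p = 0.0579 for each). The call against Tbx19 stood in 6 of 12 and was lost without vehicle 2 (0.0694), vehicle 4 (0.0772), vehicle 5 (0.0579), vehicle 6 (0.0579), GnRH 3 (0.104) or GnRH 4 (0.0741). The call against Avpr1b stood without vehicle 2, vehicle 3 or GnRH 2 and was lost in the 9 other omissions, at 0.0579 without vehicle 5 or 6, 0.0694 without vehicle 1, 0.0741 without GnRH 1 or 4, 0.0810 without GnRH 6, 0.0926 without vehicle 4 or GnRH 5 and 0.104 without GnRH 3. The ratio to Drd2 passed only without vehicle 3 (0.0370). An omission also leaves fewer arrangements, and over all omissions the log2 ratio differences stayed negative, between -2.82 and -1.16.

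Because the arrays fell into 2 classes, correlations across arrays were taken over the 7 high spike-in arrays, and the 5 low ones were too few. None of the 5 relations passed. Pomc lay within the background range on 6 of the 7 arrays and Drd2 on all 7, so the relations say little about the genes. Pearson's r of Pomc with Tbx19 was -0.59 (exact permutation p = 0.165, adjusted over 5 relations 0.827) and Spearman's rho was -0.61 (exact permutation p = 0.167). Without vehicle 4 and vehicle 6, the arrays farthest from the Pomc median, r was -0.17. With Avpr1b r was -0.05 (exact permutation p = 0.913; rho 0.29, p = 0.556), and 0.71 without those arrays. With Neurod1 r was 0.11 (exact permutation p = 0.800; rho -0.04, p = 0.963), and -0.90 without them. With Pcsk2 r was 0.10 (exact permutation p = 0.863; rho 0.43, p = 0.354) and then -0.75, and with Drd2 -0.09 (exact permutation p = 0.859; rho 0.11, p = 0.840) and then 0.56. On the 5 arrays that remain after that omission Pomc was within background throughout, so those last values of r cannot be interpreted.

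The 5 low spike-in arrays, on which Pomc exceeded all background controls, are given as values with no test. From lowest to highest Pomc they were vehicle 5, GnRH 2, vehicle 1, GnRH 1 and vehicle 2. In that order Drd2 read 389, 464, 534, 533 and 562, and Neurod1 read 432, 330.0, 199, 238 and 163. Drd2 thus ran almost in the order of Pomc and Neurod1 almost in the opposite order. In the same order Avpr1b read 31.9, 27.8, 60.5, 155 and 139.9, so it also rose with Pomc apart from swaps of neighbouring values. Of these arrays, it exceeded all background controls only on vehicle 2. Tbx19 read 135, 148, 304, 248 and 169, and Pcsk2 461, 1091, 658, 945 and 1199.9, each without a single direction. Vehicle 5 came from set III and the other 4 arrays from set I.

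**Figure D3:**
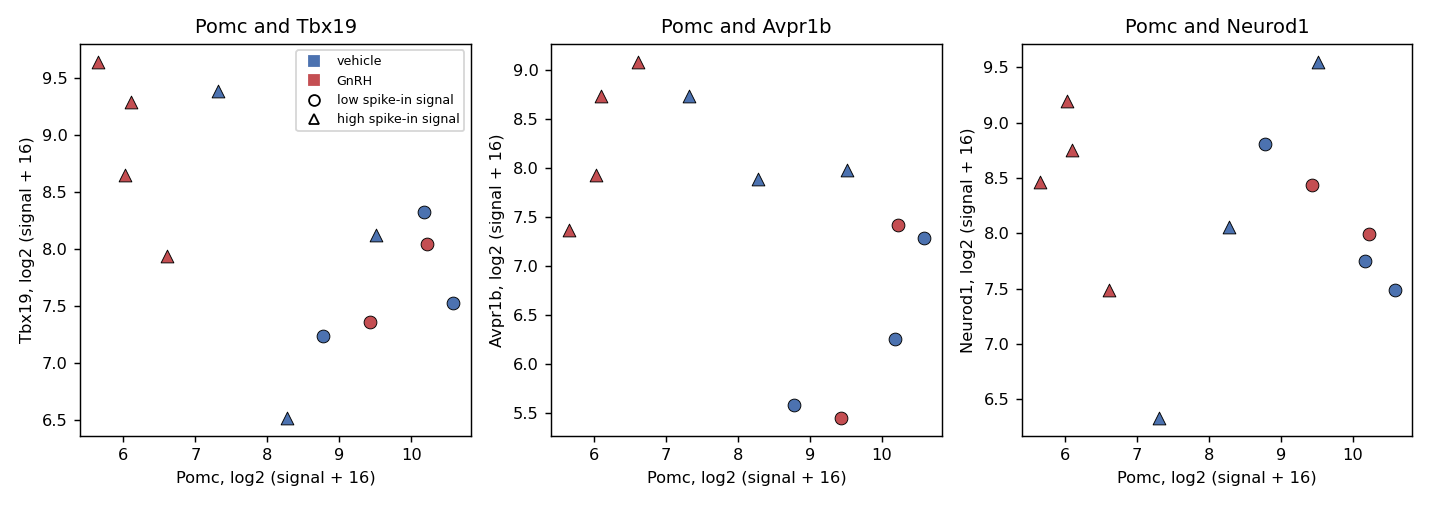
Pomc against Tbx19, Avpr1b and Neurod1 on each of the 12 arrays, all axes in log2(signal + 16), with circles for low and triangles for high spike-in arrays and colour for the agent. The 4 GnRH arrays of high spike-in signal lie at the left of each panel, where Pomc is lowest, at Tbx19, Avpr1b and Neurod1 values that overlap those of the vehicle arrays.

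To list the genes most like Pomc, log2 values were centred on the mean of each set. Those of Pomc were then correlated over the 12 arrays with those of 10679 genes. Pced1b, a member of a family of esterase-like proteins, was most like Pomc (r = 0.97), ahead of Coil, which encodes the Cajal body protein coilin (0.91), St14, which encodes the membrane protease matriptase (0.91), Slc39a8, a zinc and manganese transporter gene (0.91), and Hivep2, a zinc finger factor gene (0.89). These are descriptions of the highest values among many, over arrays that share batch and background. On the low spike-in arrays alone, r with Pomc was -0.56 for Pced1b and -0.43 for Coil. There it was 0.79 for St14, 0.34 for Slc39a8 and 0.35 for Hivep2. Coil read 37.8, 53.1 and 37.3 on GnRH 4, 5 and 6, below the background medians of 59.6, 122 and 38.0. Pced1b lay below the background median on vehicle 3 (197 against 250), GnRH 5 (92.5) and GnRH 6 (27.3). Slc39a8 did so on vehicle 3 (228), vehicle 6 (89.6 against 126), GnRH 5 (77.1) and GnRH 6 (36.7). Coil (176) and Hivep2 (237) were also below the median on vehicle 3, and St14 was above it on every array. Pced1b read 357, 370.0, 197, 979, 512 and 243 in vehicle 1 to 6 and 391, 323, 129, 83.1, 92.5 and 27.3 in GnRH 1 to 6. Its 4 lowest signals were those of GnRH 3, 4, 5 and 6, which were also the 4 lowest of Pomc. In set I, where Pomc ran from 674 to 1516, Pced1b ran only from 323 to 391, and Pced1b was highest on GnRH 1 while Pomc was highest on vehicle 2. Among the 10679 genes, Neurod1 ranked 4128 (r = 0.12), Drd2 4861 (0.06), Pcsk2 5865 (-0.01), Avpr1b 8285 (-0.24) and Tbx19 10461 (-0.67). Pomc lay within the background range on 6 of the 12 arrays behind these values, and on the low spike-in arrays Tbx19 did not run opposite to Pomc.

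The genes around Pomc were described through 9 lists, without the 4 measured corticotrope genes themselves, beside a median GnRH minus vehicle log2 difference of 0.04 over all tested probe sets. In none of the 9 lists was a gene called for GnRH by limma's adjusted p, and the counts at an unadjusted p under 0.05 were 3 in the list of Pomc transcription factors, 1 (Anxa1) in both the glucocorticoid and folliculostellate lists, and 0 in the other 6. Of 12 tested factors that act on Pomc, 8 were higher and 4 lower (median 0.08), and the 3 at an unadjusted p under 0.05 compare with 3.45% of all tested probe sets in either direction and 1.87% higher. They were Nr4a3 (1.09 ± 0.29 SE, higher in GnRH), Nr4a1 (1.16 ± 0.41) and Egr1 (0.77 ± 0.29). Nr4a1 and Nr4a3 encode orphan nuclear receptors, and Nr4a1 binds Pomc in corticotropes, while Egr1 encodes an early growth response factor that gonadotropes use to drive Lhb. All 3 are immediate early genes that many cell types induce, and their limma adjusted p was 0.981. They were higher in GnRH samples, whereas Pomc was lower.

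In the signalling of corticotropin-releasing hormone, vasopressin and leukemia inhibitory factor, 7 of 11 tested genes were higher and 4 lower (median 0.18). The leading ones were Prkar1a, a regulatory subunit of protein kinase A (0.68 ± 0.39 SE), Crem, a cAMP-responsive factor (0.78 ± 0.59), and Usp8, a deubiquitinase gene that is mutated in human corticotrope tumours (0.29 ± 0.35). In glucocorticoid feedback 5 of 12 were higher and 7 lower (median -0.11). That list was led by Anxa1, which encodes the glucocorticoid-induced annexin A1 (0.62 ± 0.29 SE), Ncoa1, a nuclear receptor coactivator gene (-0.57 ± 0.34), and Dusp1, a phosphatase gene induced by glucocorticoids and by mitogens (0.49 ± 0.30).

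Genes of POMC processing and the secretory granule were higher in 9 of 12 cases (median 0.12), led by Scg2, which encodes secretogranin II (0.68 ± 0.33 SE), Cpe, the carboxypeptidase E gene (0.68 ± 0.38), and Pam, the amidating enzyme gene (0.54 ± 0.36). All of these act in many pituitary cell types. Of 5 tested melanotrope genes 3 were higher and 2 lower (median 0.09), led by Pcsk2 (0.56 ± 0.44 SE), Gabrb1, a GABA-A receptor subunit gene (0.22 ± 0.23), and Oacyl, an acyltransferase gene (-0.51 ± 0.57). Neither list held a gene with an unadjusted p under 0.05.

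**Figure D4:**
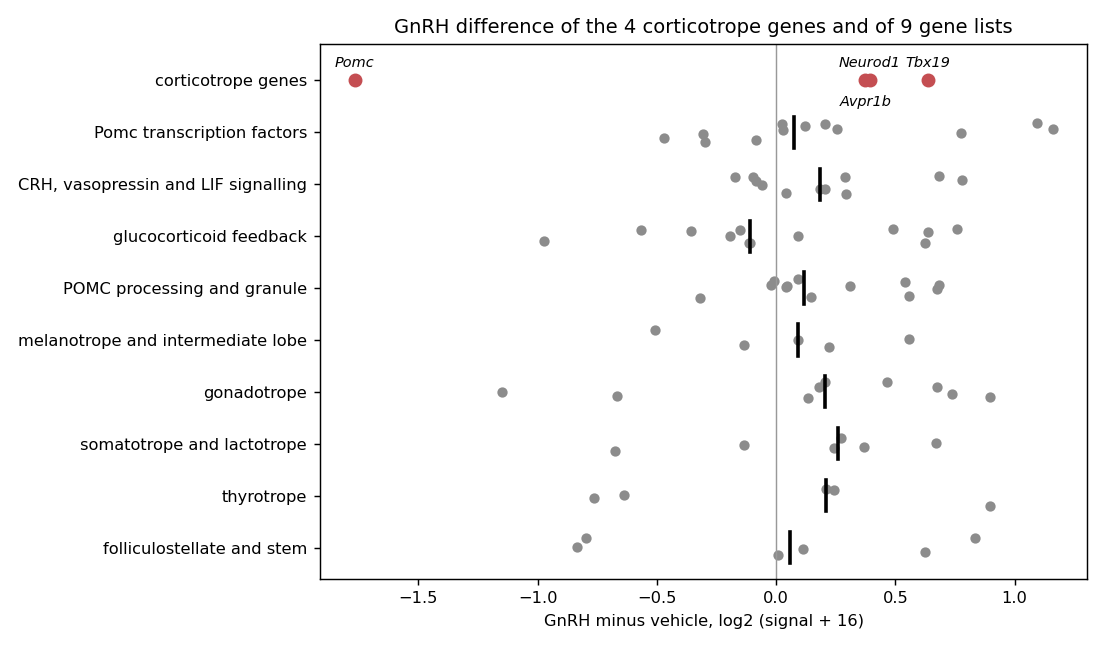
GnRH minus vehicle difference in log2(signal + 16) of the 4 corticotrope genes (red, named) and of the tested genes of 9 lists (grey, 1 point a gene); black bars mark list medians. Pomc, at -1.77, lies below every plotted list gene, and the list medians lie between -0.11 and 0.26.

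The lists of other pituitary cells gave medians of similar size. They were 0.20 for 9 gonadotrope genes (7 higher), 0.26 for 6 somatotrope and lactotrope genes (4 higher), 0.21 for 5 thyrotrope genes (3 higher) and 0.06 for 6 folliculostellate and stem cell genes (4 higher). The summed signal of the gonadotrope genes was 42152 to 480137 in vehicle and 88381 to 512414 in GnRH samples. For somatotropes and lactotropes it was 37368 to 1171580 and 89109 to 659142. These sums are mostly the signal of Lhb and Cga, and of Gh1 and Prl. The ranges overlapped, none of the hormone genes was at 0, and the part of other cells in the Pomc difference was not tested.

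Between preparations, 1 or 2 genes of each of 4 Pomc-related lists were called by the same F test that called Pomc. Etv1, an ETS factor gene (limma adjusted p = 0.0111), Nr3c2, the mineralocorticoid receptor gene (0.0395), Usp8 (0.0363) and Ctsl, the cathepsin L gene (0.00876), were lower in set II than in set I by log2 differences of -2.80, -2.62, -1.83 and -1.75, as Pomc was. Lifr, the leukemia inhibitory factor receptor gene, went the other way (limma adjusted p = 0.0419; log2 difference 3.13; 4.99% of tested probe sets were called higher in set II than in set I). These counts were 1 of 12 for the transcription factors, 2 of 11 for signalling, 1 of 12 for glucocorticoid feedback, 1 of 12 for processing and 0 of 5 for melanotrope genes, against 6.02% of all tested probe sets. Tbx19, Neurod1 and Avpr1b were not among those called, so this test called 1 of the 4 corticotrope genes, Pomc.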

How the data were processed

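RNA of 12 samples was measured on 1 Affymetrix array each, and each sample's agent and enrichment set were taken from its labels. The deposited values are probe set signal intensities on a linear scale made by the authors in the GeneChip Operating System (GCOS), as the submitters' processing notes name it; the sources used here give neither version nor settings. Per the labels, set I no longer has scanner files, and no scanner file entered this work. The deposited intensities had 2% trimmed means of 497 to 499, so they had been scaled to a common level, and a level common to all arrays cannot be read from them. Columns of samples outside these 12 numbered 0.

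The values of each array were scaled so that the trimmed mean was 500 over 31042 probe sets other than the 57 controls, a pseudocount of 16 was added and log2 was taken. Folds are on that scale, on which changes of dim genes are understated. Tests were limited to the 18625 probe sets with a mean log2 value over all arrays at or above the 40th percentile (7.35, a signal of 147). The Pomc mean was above this cut in vehicle samples (9.11) and set I (10.10). It was below the cut in GnRH samples (7.34) and in sets II (7.24) and III (7.33). Avpr1b was below it in vehicle samples (7.29) and set I (6.60) and above it in the other groups. Both thus passed through the groups where they were high, which limits their tests between groups. Without the filter the Pomc difference between agents was also -1.77. One model in limma 3.58.1 (R 4.3.3) held enrichment set and agent, with moderated variances and an intensity trend. All adjusted p-values of limma are Benjamini-Hochberg values over the 18625 probe sets, called under 0.05. The sets were compared by moderated F tests over all arrays and over vehicle arrays, and the interaction of set and agent was tested likewise. The fit was tested on simulated data. Permutation tests and correlations used scipy 1.17.1 under Python 3.11.15. The study's criterion of a 1.50-fold change with 50% concordance was applied to signal plus 16, and its change calls were not recomputed. The number of arrays limits the precision.

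Genes named are the corticotrope genes, up to 3 genes of smallest p from each list, hormone genes and the GnRH receptor as levels of other cells, and the 5 genes most like Pomc. Etv1, Nr3c2, Ctsl and Lifr were added after their values were seen, as the list genes called between sets. Each gene is represented by its tested probe set of highest mean. The corticotrope genes and the lists were chosen with earlier results of these data known. Alternatives covered the pseudocount, scaling, filter, set term, a replicate block, a spike-in covariate, array weights, the intensity trend, single sets, the high spike-in arrays and omission of each array. No probe set was aligned here, and gene coordinates and promoters are those of RefSeq on GRCr8.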

Additional observations from a re-analysis of the deposited data

How the results depend on the processing

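The Pomc difference between GnRH and vehicle was negative in all 26 alternative settings, from -2.40 to -0.55 on the log2 scale, and passed the adjusted threshold in none. Its value was -1.97 and -1.38 with pseudocounts of 1 and 64 and -1.58 with the spike-in covariate. Avpr1b turned negative with array weights (-0.026) and in sets I (-0.34) and II (-0.028) alone, Tbx19 in set I alone (-0.22) and Neurod1 in set III alone (-0.46). Over the omissions of 1 array Avpr1b ran from -0.054 to 0.71 and Neurod1 from -0.092 to 0.71. The cause was not tested.

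The count of probe sets called higher, 1, was 0 with a pseudocount of 1, quantile normalization, no set term, a replicate block, no intensity trend, each set alone or the high spike-in arrays alone, 2 with array weights, and 0 to 1 over the omissions. The count at an unadjusted p under 0.05, 643, was 1090 without the filter, which tests more probe sets, 333 without the set term, 1403 with the spike-in covariate, 965 with array weights and 441 to 895 over the omissions. Same-numbered samples within a set did not deviate together (correlations of -0.03, -0.03 and -0.14 in sets I, II and III), so the numbers were not taken to pair samples. The replicate block left Pomc at -1.77 (limma adjusted p = 1.0) and gave 502 probe sets at an unadjusted p under 0.05. It changed no call of the 4 genes.

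The F test over sets called 637 probe sets under quantile normalization, 26 with the spike-in covariate and 127 to 2332 over the omissions, against 1122. For Pomc F was 5.49 with that covariate and 7.77 to 20.2 over the omissions. These 2 alternatives for the F test, omission and covariate, were chosen after the data were seen, as were the ratios to Pcsk2 and Drd2. Over the omissions the Pomc ratio difference ran from -2.82 to -1.83 for Tbx19, -2.53 to -1.57 for Avpr1b, -2.44 to -1.88 for Neurod1, -2.65 to -2.07 for Pcsk2 and -2.03 to -1.16 for Drd2. Background limits the values of Pomc on 6 of the 7 high spike-in arrays, all but vehicle 4, and those of Avpr1b on 11 of the 12 arrays. Drd2 exceeded all background controls on 0 of the 7 high spike-in arrays. Tbx19 failed to do so on 5 of the 12 arrays and Neurod1 on 4. No value of the 4 genes in the 8 groups of 6 arrays lay far enough from its group to be singled out by Dixon's test.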
